A study of Mus musculus with 9 samples.

Results

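A set of 10 genes that mark the secretory cells of the minor salivary glands of the tongue was described, out of 20512 genes with a value. Its mucous products are Muc5b and Tff2, and its serous products are Prb1, Prpmp5, Chia, Amy1, Dmbt1 and Lpo. Bhlha15, a transcription factor of secretory cells, and Aqp5, a water channel, complete it. The genes were found by their symbols, and the set was drawn up with values of these libraries already known, so the transgene and control levels below are a description and carry no test. All 10 varied over the libraries and 9 of them entered the fit across all genes, while Lpo lay below its minimum level.

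The RNA came from whole tongues, in 4 transgene libraries and 5 control libraries. Transgene mice carried K14-rtTA and TREFLBmi-1, and control mice carried K14-rtTA only. The first allele makes a doxycycline-dependent activator under the keratin 14 promoter, which is active in basal epithelial cells, and the other places Bmi1, a subunit of Polycomb repressive complex 1, under that activator. Mice of both groups had a C57/Bl6 and FVB/NJ background, were about 6 weeks old, and had drinking water with 2 mg/mL doxycycline for 1 week. Nothing in the labels says that each library is its own animal. The errors given measure the spread between the deposited values of these libraries, which may be technical. In whole tissue, fewer gland cells and less RNA per gland cell cannot be told apart.

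Minor salivary glands lie in the muscle and under the epithelium of the tongue and keep its surface moist. Mucous cells secrete gel-forming mucin with trefoil peptides, and serous cells secrete a thin fluid with enzymes, proline-rich proteins and antimicrobial proteins. Both kinds store their products in granules that are released on nerve stimulation, and ducts lined by other cells carry the fluid to the surface.

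Levels are log2 normalized expression as the authors deposited it. A log2 unit is a doubling, and every difference is transgene minus control. No counts accompany them, so the depth of the libraries is unknown. The values carry the mark of an adjustment that no label names: within the groups, 5 of 7 possible directions held any variation. Of 3003 ways to split the 9 libraries into 3 sets, 1 left no effect of the sets in any gene. These sets are called strata. Stratum 1 holds transgene 1 and control 1, stratum 2 holds transgene 2, 3 and 4 with control 2 and 3, and stratum 3 holds control 4 and 5. No source used here says what the strata stand for. Every SD and SE below measures the spread left after this adjustment, and the spread before it is unknown. Stratum 1 supplies 29.4% of each group difference and stratum 2 supplies 70.6%. A limma fit with group and stratum terms called 74 of 14490 genes higher and 166 lower in the transgene group at an adjusted p under 0.05. Bmi1 had log2 values of 12.49, 12.05, 14.87 and 11.94 in transgene libraries 1 to 4, against 10.74, 10.21, 10.24, 10.45 and 10.34 in control libraries 1 to 5, as the labels have it. The fit did not call Bmi1 itself, at a difference of 2.44 (SE 0.60, limma adjusted p 0.0672), although its groups did not overlap. Bmi1 is also not among the 981 genes of the authors' own table. A gene without a call can therefore still differ.

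In the deposited values, the mucous genes Muc5b and Tff2 were slightly higher in the transgene libraries, and their groups did not overlap. The serous genes Prb1, Prpmp5, Chia, Amy1 and Dmbt1 were lower on average in the transgene group, with differences of -0.14 to -0.36, but the groups overlapped for each of them. Their lower mean came from stratum 1, where the single transgene library differed from the single control library by -0.75 to -1.22. In stratum 2 the same 5 genes differed by between -0.00 and 0.12. No member passed the fit across all genes, in which 1.66% of all genes did. At an unadjusted p under 0.05 there were 2 of 9 members (Muc5b and Tff2), against 23% of all genes. A fit without the stratum terms called the same 2 genes higher, where 11.7% of all genes were called higher. Since the set was chosen on this contrast, nothing is read from these counts.

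**Figure D1:**
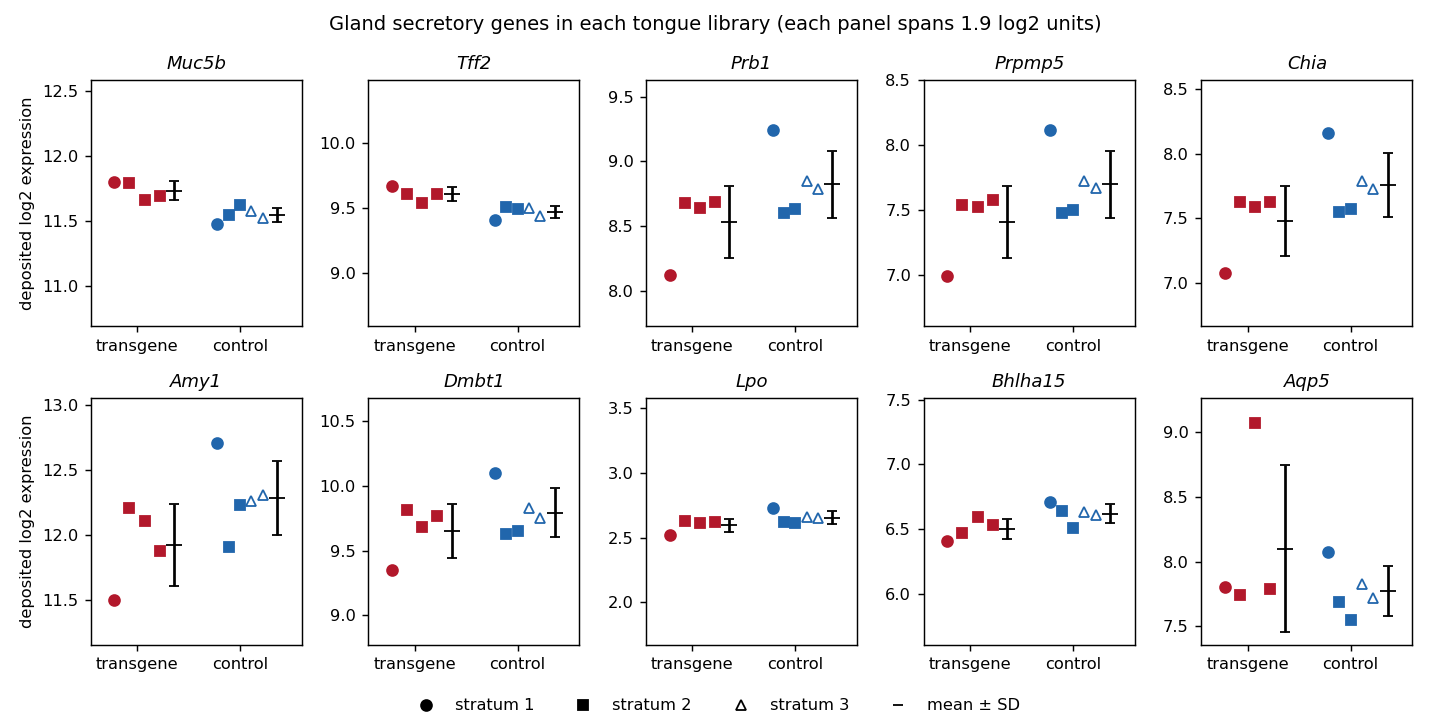
Deposited log2 expression (y axis) of the 10 gland secretory genes in each transgene library (red, left) and control library (blue, right) by stratum, with the group mean ± SD beside the points, n = 4 and 5. For Prb1, Prpmp5, Chia, Amy1 and Dmbt1 the transgene circle is the lowest point of its panel and the control circle the highest; Muc5b and Tff2 show the transgene points above the control points.

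Muc5b encodes the gel-forming mucin of salivary mucous cells. It stood at 11.80, 11.79, 11.66 and 11.69 in transgene libraries 1 to 4, against 11.48, 11.55, 11.62, 11.58 and 11.52 in control libraries 1 to 5. In these deposited values every transgene library was above every control library, by a margin of a few hundredths at the nearest pair. Whether the groups overlapped before the authors' adjustment is unknown. The group means were 11.74 ± 0.07 in the transgene group (SD, n = 4) and 11.55 ± 0.05 in the control group (SD, n = 5), a difference of 0.19 (SE 0.06), or 1.14-fold. It was 0.32 within stratum 1 and 0.13 within stratum 2.

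Tff2 encodes a trefoil peptide that is secreted with mucin. Its log2 values were 9.67, 9.61, 9.54 and 9.61 in the transgene libraries and 9.41, 9.51, 9.49, 9.50 and 9.44 in the control libraries. The groups again did not overlap in the deposited values, and the difference was 0.14 (SE 0.05), with 0.27 in stratum 1 and 0.08 in stratum 2. Groups with all transgene libraries above all control libraries occurred in 9.76% of the 14490 genes tested, and groups with all of them below in 11.6%. These 2 mucous genes were the members of the first kind, and 0 members were of the other kind.

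Among the serous genes, Prb1 and Prpmp5 encode proline-rich salivary proteins from neighbouring genes on chromosome 6, and Chia encodes acidic chitinase, an enzyme that breaks down chitin. The start regions of these 3 and a start region of Amy1 are shown because they hold the same TATA motif shortly before the start, and since the Prb1 and Prpmp5 copies differ little. The other Amy1 start region lacks the motif. The windows are RefSeq promoters on GRCm38.p6, from 250 bases before to 50 bases after the start, while the authors' build was mm9. They are Prb1 at chr6:132210472-132210771 (minus strand), Prpmp5 at chr6:132314694-132314993 (minus strand), Chia, which RefSeq names Chia1, at chr3:106113132-106113431 (plus strand), and one of the starts of Amy1 at chr3:113574713-113575012 (minus strand). Each is written 5′ to 3′ on the gene's strand, with the motif TATAAA in capitals.
Prb1: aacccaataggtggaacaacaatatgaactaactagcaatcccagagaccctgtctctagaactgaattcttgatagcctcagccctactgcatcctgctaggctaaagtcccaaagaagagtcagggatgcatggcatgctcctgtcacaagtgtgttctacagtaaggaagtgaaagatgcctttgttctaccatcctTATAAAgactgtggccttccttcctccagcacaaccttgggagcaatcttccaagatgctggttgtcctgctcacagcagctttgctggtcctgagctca
Prpmp5: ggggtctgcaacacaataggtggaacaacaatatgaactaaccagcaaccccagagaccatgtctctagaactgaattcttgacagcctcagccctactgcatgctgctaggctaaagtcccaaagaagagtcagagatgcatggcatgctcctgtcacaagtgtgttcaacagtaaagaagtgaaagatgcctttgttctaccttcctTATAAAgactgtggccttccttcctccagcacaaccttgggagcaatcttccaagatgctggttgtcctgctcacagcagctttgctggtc
Chia: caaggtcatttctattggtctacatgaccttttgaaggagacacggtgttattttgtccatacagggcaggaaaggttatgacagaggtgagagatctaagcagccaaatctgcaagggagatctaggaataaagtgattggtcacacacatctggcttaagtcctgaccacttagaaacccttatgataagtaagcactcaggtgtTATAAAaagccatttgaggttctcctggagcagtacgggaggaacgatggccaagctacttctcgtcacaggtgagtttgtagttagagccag
Amy1: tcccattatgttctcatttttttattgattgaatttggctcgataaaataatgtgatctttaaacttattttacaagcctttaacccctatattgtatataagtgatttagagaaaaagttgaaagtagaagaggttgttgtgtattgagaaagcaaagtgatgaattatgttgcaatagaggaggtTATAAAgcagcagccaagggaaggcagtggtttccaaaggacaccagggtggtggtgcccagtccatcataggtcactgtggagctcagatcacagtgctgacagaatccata

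RefSeq windows were found for 7 members, 8 windows in all, because Amy1 has a pair of starts; Muc5b, Tff2 and Dmbt1 had no entry. TATAAA, searched on both strands, was in 4 of the 8 windows, each time on the gene's strand, and in 13.6% of all 32851 windows of that length. It began 50 bases before the start in Prb1, 41 in Prpmp5, 43 in Chia and 63 at the Amy1 start shown. CATATG, an E-box form that the Bhlha15 protein binds in mouse secretory cells, was in 0 of the 8 windows and in 3.91% of all windows. These matches describe letters only. The Prb1 and Prpmp5 windows were identical at 281 of 291 aligned bases (96.6%).

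Prb1 stood at 8.12, 8.68, 8.64 and 8.69 in transgene libraries 1 to 4, against 9.24, 8.60, 8.63, 8.85 and 8.79 in control libraries 1 to 5. Transgene 1 was the lowest of the 9 libraries and control 1 the highest, and the other transgene libraries lay among the controls. The group means were 8.53 ± 0.28 in the transgene group (SD, n = 4) and 8.82 ± 0.25 in the control group (SD, n = 5), and their difference of -0.29 (SE 0.18) was of the size of the spread. Within stratum 1 the difference was -1.12, which is 0.461 of the control level, and within stratum 2 it was 0.05.

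Prpmp5 had the same order of libraries at a lower level, with 6.99, 7.54, 7.52 and 7.58 in the transgene libraries and 8.12, 7.48, 7.50, 7.72 and 7.67 in the control libraries. Chia, on chromosome 3, had 7.08, 7.63, 7.59 and 7.63 in the transgene libraries and 8.16, 7.55, 7.57, 7.79 and 7.73 in the control libraries. In both genes transgene 1 was again lowest and control 1 highest. The difference of Prpmp5 was -0.29 (SE 0.18), with -1.13 in stratum 1 and 0.05 in stratum 2. That of Chia was -0.28 (SE 0.17), with -1.08 in stratum 1 and 0.06 in stratum 2. Prb1 and Prpmp5 are near-identical copies in part: 27.7% of the 50-base words of the Prb1 transcripts and 29.5% of those of Prpmp5 occur in transcripts of other genes, chiefly each other, Gm4736 and Gm8882. At a read length of 50 bases their values are uncertain as separate measurements. Chia shares no such word with another gene.

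Amy1, salivary amylase, was the member with the highest deposited level. It had 11.50, 12.21, 12.11 and 11.88 in transgene libraries 1 to 4, against 12.71, 11.91, 12.23, 12.26 and 12.31 in control libraries 1 to 5. The difference of -0.36 (SE 0.20) was -1.22 in stratum 1 and -0.00 in stratum 2. Transgene 1 and control 1 were the extremes here too, but the libraries of stratum 2 were more spread than for Prb1. Of the Amy1 words, 2.69% occur in other genes, chiefly the pancreatic amylases, of which Amy2a5 is listed at 0 in every library.

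Dmbt1 encodes a secreted scavenger receptor protein that binds bacteria. It had 9.35, 9.81, 9.68 and 9.77 in the transgene libraries, against 10.10, 9.63, 9.65, 9.83 and 9.75 in the control libraries. The difference was -0.14 (SE 0.14), with -0.75 in stratum 1 and 0.12 in stratum 2. Lpo, the peroxidase of saliva, stood at 2.52 to 2.63 in the transgene group and 2.61 to 2.73 in the control group. It was below the minimum mean of 3, and transgene 1 and control 1 were its lowest and highest libraries as well.

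Bhlha15, also called MIST1, is needed for the full size of the secretory apparatus in serous cells. It had 6.41, 6.47, 6.59 and 6.53 in the transgene libraries and 6.71, 6.64, 6.51, 6.63 and 6.61 in the control libraries. The groups overlapped, and the difference of -0.12 (SE 0.06) was -0.30 in stratum 1 and -0.04 in stratum 2.

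Aqp5 is the apical water channel through which fluid leaves secretory cells. It had 7.80, 7.74, 9.07 and 7.79 in transgene libraries 1 to 4, against 8.07, 7.69, 7.55, 7.83 and 7.72 in control libraries 1 to 5. Transgene 3 stood apart, and the other transgene libraries lay within the control range. The difference of 0.33 (SE 0.30) became 0.00 without transgene 3. That library also held the highest Bmi1 value, 14.87, and the highest value of the duct and surface keratin Krt7, 7.25, whose part in the Aqp5 value was not tested. The difference was -0.27 in stratum 1 and 0.58 in stratum 2, the stratum that holds transgene 3.

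The stratum 1 pair needs care in reading. In the deposited values, transgene 1 and control 1 deviated from their own group means by equal and opposite amounts in every gene. For Prb1 these deviations were -0.41 and 0.41, for Chia -0.40 and 0.40, and for Amy1 -0.43 and 0.43. Whether transgene 1 was low or control 1 was high therefore cannot be told apart, and stratum 1 holds 1 library of each group.

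**Figure D2:**
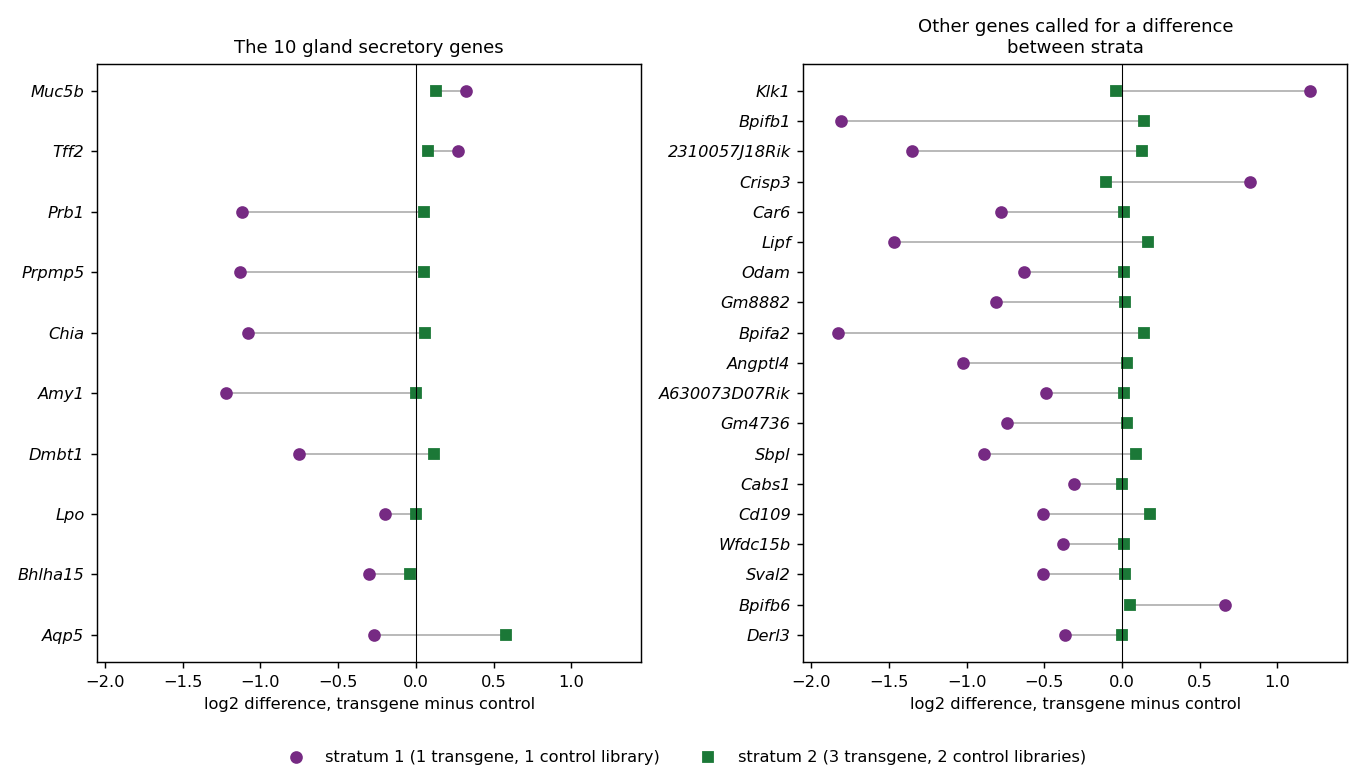
Difference between transgene and control in log2 units for the 10 gland secretory genes, within stratum 1 (1 transgene against 1 control library) and within stratum 2 (3 transgene against 2 control libraries); the second panel gives the other 19 genes called for a difference between the strata. The serous genes Prb1, Prpmp5, Chia, Amy1 and Dmbt1 reach -0.75 to -1.22 in stratum 1 and lie between -0.00 and 0.12 in stratum 2.

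A term for the difference between the strata, added after the data were seen, called 23 of 14490 genes (0.159%). Stratum 1 is 1 library against 1, so the error of this term comes only from strata 2 and 3, and the calls assume that the stratum 1 libraries vary like the others. Prb1, Prpmp5, Chia and Dmbt1 were among them, with differences between strata of 1.17, 1.19, 1.14 and 0.86. These values come from the libraries on which the set was drawn up, and the counts are a description. Of the 23 genes, 20 were lower in stratum 1 and 3 were higher. At an unadjusted p under 0.05 the term held 2401 genes (16.6%).

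Genes outside the set differed in the same way in that pair of libraries. On a list of other gland secretory products, 5 genes were among the 23: Bpifb1, 2310057J18Rik, Car6, Lipf and Bpifa2. Bpifb1, an antimicrobial protein of the BPI fold family, was -1.81 in stratum 1 and 0.14 in stratum 2. Lipf, the acid lipase that mouse lingual serous glands secrete, was -1.47 in stratum 1 and 0.17 in stratum 2. Bpifa2, the parotid secretory protein, was -1.83 in stratum 1 and 0.14 in stratum 2. Klk1, tissue kallikrein and a product of gland ducts, went the other way with 1.21 in stratum 1 and -0.04 in stratum 2. Its level was low, with a mean log2 of 4.09. Crisp3 and Bpifb6, the latter of the BPI fold family too, were also higher in stratum 1. Crisp3 was 0.82 in stratum 1 and -0.10 in stratum 2, and Bpifb6 was 0.66 and 0.05.

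Neighbours of Prb1 had the same split. Around Prb1 and Prpmp5 lies a run of 7 protein-coding genes in RefSeq order, made of Gm4736, Prb1, Prpmp5, Gm8882, Prh1, Prp2 and A630073D07Rik. Among these, 5 were called for the difference between strata, and Prh1 and Prp2 were listed at 0 in every library. Both ends of the run, Gm4736 and A630073D07Rik, are among the called genes and were set with the calls known. The count therefore follows in part from how the run was cut, and is a description. Gm8882 was -0.81 in stratum 1 and 0.02 in stratum 2, and Gm4736 was -0.74 and 0.03. Gm4736 shares 66.2% of its 50-base words with other genes, 62.8% with Prb1, so reads of that pair can be split between them. Gm8882 shares 27.6% of its words, 20.1% with Prpmp5, so its value is not fully separate either. A630073D07Rik shares none and was -0.49 in stratum 1 and 0.01 in stratum 2. Its level was low, with a mean log2 of 3.95, and its stratum 2 libraries all stood at 3.92 or 3.93. Equal expression and too little signal cannot be told apart there.

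In their deviations from the group means over the 9 libraries, Prb1, Prpmp5, Chia, Dmbt1 and Amy1 went together, and Muc5b and Tff2 went against them. The largest deviations of Prb1 were those of transgene 1 and control 1, -0.41 and 0.41, which are equal and opposite in every gene. Prb1, Prpmp5 and Chia had Pearson's r of 1.00 with each other, Dmbt1 had 0.99 with all 3, and Amy1 had 0.90 to 0.91 with them. Bhlha15 had 0.76 with Prb1 and Aqp5 had 0.37. Muc5b and Tff2 had 0.79 with each other, and Muc5b had -0.64 with Prb1 and -0.89 with Bhlha15. The median over the 36 pairs of tested members was 0.40. It was 0.28 to 0.65 with single libraries left out, and lowest without transgene 1. The libraries share the groups and the strata, and the values hold few independent directions, so these coefficients describe the table and have no p.

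**Figure D3:**
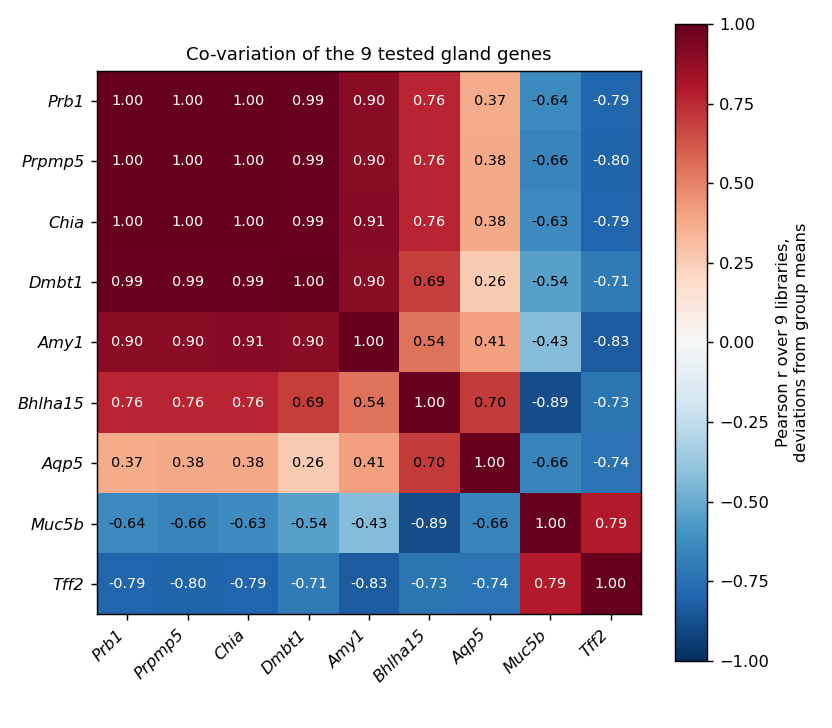
Pearson's r over the 9 libraries, on deviations from the group means, for each pair of the 9 members with a mean log2 of at least 3, with colour for the size and sign of r. Prb1, Prpmp5, Chia, Dmbt1 and Amy1 form a block of r from 0.90 to 1.00, and Muc5b and Tff2 (r 0.79) have negative r with all of that block.

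The genes whose deposited values followed the mean of the members most closely were Reep3 (r 0.998), Snx31 (0.996), Gpr116 (0.995), Plcb4 (0.992) and Ptprb (0.99). Igsf5 (0.989), Naalad2 (0.987), 2310057J18Rik (0.985), Bpifb1 (0.981) and Angptl4 (0.98) came after them. The measure was Pearson's r over 9 libraries, on deviations from the group means, with the mean of the 9 tested members, each scaled to the same spread. Among 14481 genes outside the set, 226 (1.56%) reached an r of 0.9, and 276 had an r of -0.9 or lower. The members themselves had 0.98 (Prb1 and Chia), 0.97 (Prpmp5 and Dmbt1), 0.92 (Amy1), 0.76 (Bhlha15), 0.45 (Aqp5), -0.56 (Muc5b) and -0.77 (Tff2) with that mean.

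The authors' own table of 981 genes, which is 5.62% of the 17448 genes that vary, held 5 of the 10 members. In the authors' deposited table Muc5b had a log2 fold change of 0.41 (SE 0.12, adjusted p 0.0173) and Tff2 one of 0.37 (SE 0.13, adjusted p 0.0442). The authors' deposited table gave Prb1 -0.69 (SE 0.13, adjusted p 6.86e-05), Prpmp5 -0.62 (SE 0.14, adjusted p 0.000846) and Chia -0.63 (SE 0.14, adjusted p 0.000615). Amy1, Dmbt1, Lpo, Bhlha15 and Aqp5 are not among the 981 genes. The signs match those of the deposited log2 values, and the sizes are larger. In the authors' deposited table the size for Prb1 exceeded that of the log2 values by 0.39, for Chia by 0.35 and for Prpmp5 by 0.33. For Tff2 and for Muc5b it did so by 0.23, against a median of 0.05 over the 981 genes. These 5 ranked between 3 and 9 of the 981 by that excess.

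A mean normalized signal stands in the authors' deposited table beside each gene, and for these members it was far above the level of the deposited log2 values. That mean was 27982 for Muc5b, or 14.77 on the log2 scale, while the log2 values of Muc5b averaged 11.63 and none was above 11.80. The gap of 3.14 is 8.81-fold and was the largest of all 981 genes. In the authors' deposited table Tff2 had a mean of 4362, which is 12.09 on the log2 scale against 9.53, a gap of 2.56. Prb1 had a mean of 1720 there, which is 10.75 against 8.69, a gap of 2.06. Chia (538) and Prpmp5 (503) had gaps of 1.44 and 1.40.

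Over the 981 genes of the authors' deposited table the median gap was 0.03. The 9 largest gaps belonged to the 5 members and to 4 genes of the Y chromosome, Ddx3y (1.54), Eif2s3y (1.37), Kdm5d (0.99) and Uty (0.96), and the next was 0.52. The set was drawn up with the deposited levels and this mean signal compared. The place of the members in this order is therefore a description and no independent result. Spread within the deposited log2 values themselves would give the 5 members a gap of 0.002 to 0.027. A mean over these libraries cannot exceed the highest library. If the mean covers these 9 libraries, at least 1 of them had far more Muc5b signal than any deposited log2 value shows. What sets the gap apart in these genes was not tested. For the members, deposited log2 levels and differences are therefore values after the authors' processing, and the level before it was not analysed here.

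**Figure D4:**
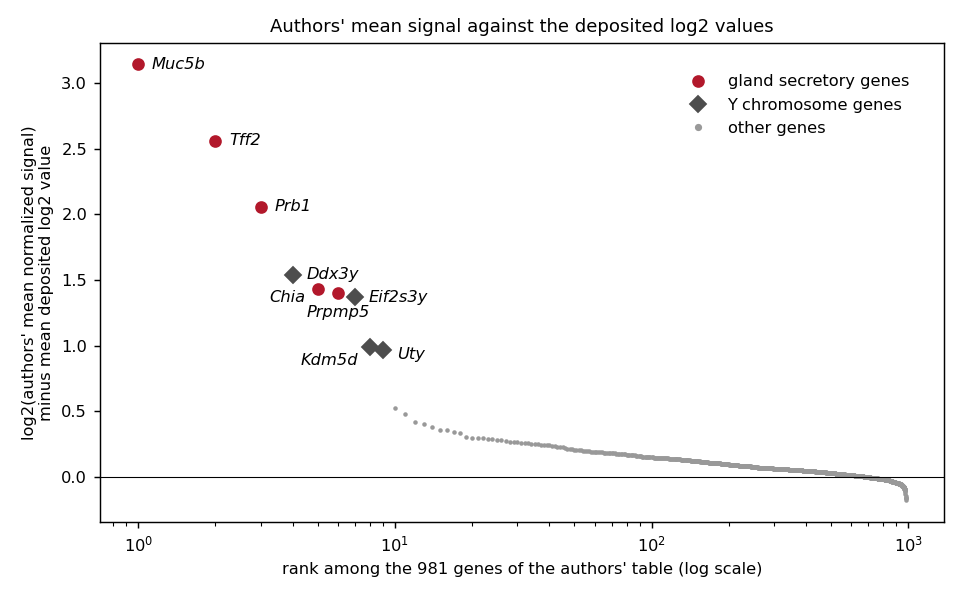
Gap between the log2 of the authors' mean normalized signal and the mean deposited log2 value (y axis, log2 units) against rank (x axis, log scale) for the 981 genes of the authors' deposited table. The gland genes Muc5b, Tff2, Prb1, Chia and Prpmp5 (red) and 4 Y chromosome genes (diamonds) hold the 9 largest gaps, from 3.14 down to 0.96, and the next gene is at 0.52. The gland genes were chosen with this comparison known, so their rank is a description.

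Per kilobase of the longest transcript, the mean deposited log2 levels were 11.14 for Amy1, 10.31 for Tff2, 8.0 for Prb1 and 7.73 for Muc5b. Prpmp5 (7.19), Dmbt1 (7.08), Aqp5 (7.07) and Chia (6.89) followed, with neighbours closer than the spread between libraries. Bhlha15 (4.76) and Lpo (1.08) were lowest. The order rests on the deposited log2 values, and gaps to the mean signal are known only for Muc5b, Tff2, Prb1, Chia and Prpmp5. Amy1 and the others are not in the authors' deposited table. Their gaps are unknown, so no order by mean signal is given.

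The other gland secretory products numbered 51 genes in the table, of which 10 were listed at 0 and 33 were tested. None was higher and 1 was lower, Wfdc12, a protease inhibitor of the WAP family, with a difference of -0.29 (SE 0.06, limma adjusted p 0.0436). Leaving out transgene 2, 3 or 4 or control 2, 3, 4 or 5, or the level minimum, ended that call. Over all genes tested, the fit called 1.66%. At an unadjusted limma p under 0.05 there were 5 of the 33 tested products, against 23% of all genes. The median difference of the 33 genes was -0.03, with -0.12 in stratum 1 and 0.05 in stratum 2, against 0.00, -0.01 and 0.01 over all genes tested. For the 9 tested members these medians were -0.14, -0.75 and 0.06. The summed level of the other products was 15.44 to 15.66 in the transgene libraries and 15.72 to 15.99 in the control libraries, and the groups did not overlap. Among single genes tested, 11.6% had all transgene libraries below all control libraries. A sum follows its most abundant genes. Of the 33 tested products, 5 lay wholly below and 3 wholly above in the transgene libraries.

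Of 43 tested genes of the secretory machinery, none was higher and 2 were lower: Vamp8, a SNARE protein of granule release, by -0.27 (limma adjusted p 0.0407), and Fxyd3, a regulator of the sodium pump, by -0.29 (limma adjusted p 0.0436). Both calls were lost without transgene 2 or 3 or without control 2, 3, 4 or 5, and that of Fxyd3 also without transgene 4 and without the level minimum. The fit called 1.66% of all genes. At an unadjusted limma p under 0.05 there were 7 of the 43 machinery genes, against 23% of all genes. The median of the list was 0.03. None of 15 tested duct genes and none of 8 genes of myoepithelial and smooth muscle cells passed the test, with medians of 0.07 and 0.04. At an unadjusted p under 0.05 there were 2 duct genes and 1 gene of the other list, against 23% of all genes. The duct genes with the largest differences were Klk1 (0.33) and the keratins Krt7 (0.26) and Krt19 (0.26). Those of the contractile list were the smooth muscle genes Myh11 (0.37) and Mylk (0.24) and the basal keratin Krt14 (-0.16).

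Marker lists of other cells were summed in each library. Plasma cell genes, 12 with varying values, summed to 13.41 to 13.62 in the transgene group and 13.51 to 13.68 in the control group. Airway genes summed to 11.01 to 11.35 in the transgene group and 11.28 to 11.65 in the control group. Major gland and pancreas genes summed to 10.23 to 10.51 in the transgene group and 10.38 to 10.73 in the control group. In these 3 sums transgene 1 was the lowest library and control 1 the highest, with differences in stratum 1 of -0.27, -0.65 and -0.50. The myoepithelial and smooth muscle sum had the same extremes and -0.31, and the sums of all 10 lists, the members' included, were lower in stratum 1. A sum follows its most abundant genes, and the medians over the tested genes of these lists were nearer 0 in stratum 1, at -0.08 for plasma cells, -0.04 for airway cells, -0.11 for major gland and pancreas and -0.23 for myoepithelial and smooth muscle cells. Cyp2f2 alone stood at 10.91 to 11.27 in the transgene group and 11.19 to 11.59 in the control group, near the whole airway sum. On the plasma cell list, the transgene mean was 12.71 for Sdc1 and 7.25 for Irf4. In stratum 1 the airway gene Cyp2f2 differed by -0.68, against -0.05 for Scgb1a1 and 0.09 for Ccdc39. There the listed plasma cell gene Sdc1 differed by -0.41, against 0.31 for Irf4. The part of these cells in the result was not tested. The pancreas genes Prss1, Ctrb1, Cela2a and Pnlip and the lung gene Sftpd are listed at 0. Largest in difference were the plasma cell genes Irf4 (0.15), Prdm1 (0.14) and Sdc1 (-0.11), the airway genes Cyp2f2 (-0.23), Scgb1a1 (-0.20) and Ccdc39 (0.04), and the major gland genes Bpifa2 (-0.44), Egf (-0.10) and the mucin Muc19 (0.05). No plasma cell, airway, taste or major gland gene passed the limma test, while 0, 1, 0 and 0 of them had an unadjusted p under 0.05. In these lists 6, 4, 9 and 5 genes were tested. Over all genes tested, the shares were 1.66% for the adjusted and 23% for the unadjusted p.

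Taste cell genes summed to at most 10.17 in the transgene group and to 9.93 to 10.14 in the control group, with overlap, and their largest differences were -0.06 for Trpm5, -0.05 for Tas1r1 and 0.05 for Plcb2, all of the taste signal chain. Genes of tongue muscle and surface epithelium summed to 20.70 to 20.88 in the transgene group and 20.67 to 20.91 in the control group, and 1 of these 11 was called, Krt36, a hair-type keratin of the tongue papillae, by -0.86 (limma adjusted p 0.0475). That call was lost without transgene 2 or 3, without control 2, 3, 4 or 5, without the level minimum and without the variance trend. Over all genes tested, the fit called 1.66%. The summed level of the 10 members was 13.10 to 13.44 in the transgene group and 13.20 to 13.65 in the control group.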

How the data were processed

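RNA of whole mouse tongue was sequenced as stranded mRNA libraries read from 1 end, per the labels' protocols. The submitters' processing notes name TopHat2, HTSeq and DESeq2 and the build mm9; their versions and order are not given in the sources used here. Expression values were deposited as log2 normalized values for 20512 genes in 9 libraries, with no counts, so depth is unknown. Of these genes, 3064 were at 0 in every library and were left out. The authors' table of 981 genes, per the file headers, holds a mean normalized signal, a log2 fold change with its error, a test score, a ratio of the groups and p-values.

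Genes with a mean log2 of at least 3 (14490) were fitted with limma 3.58.1 in R 4.3.3, with group and stratum terms and an intensity trend. P-values were two-sided, adjusted by Benjamini and Hochberg's method and called at an adjusted p under 0.05. The strata came from a search over partitions of the 9 libraries that used all genes. The fit was tested on simulated data. Stratum 3 has no transgene library and adds only to the spread. Pearson's r, summed levels and gaps were computed in Python 3.11.15 with pandas 2.3.3; promoter windows were aligned with Biopython 1.88. Shared 50-base words were counted in GENCODE transcripts on GRCm38, not on the authors' build.

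The members and lists were chosen with earlier results of these data known. From each other list up to 4 called genes are named or, where none was called, the 3 with the largest difference, and 10 genes by likeness; the genes called for the difference between strata and the Prb1 neighbours were named after their values were seen. One gene of the major gland list is not reported here. Replicates were numbered in accession order. Alternatives were a group-only fit, other level minimums, no trend, libraries shifted to the same median, single strata and leaving out each library.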

Additional observations from a re-analysis of the deposited data

Results flagged for a closer look

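Samples far from the rest of their group were looked for in 64 groups of values, and 7 were found. For independent values chance gives about 1 in 20. These genes move together and were partly named by the size of their difference, so nothing is read from that rate. In transgene library 1, Prb1 (8.12), Prpmp5 (6.99), Chia (7.08) and Lpo (2.52) lay far below the other transgene libraries, and Klk1 (4.71) lay far above them. Control 1 mirrors these by the form of the deposited values. In transgene library 3, Aqp5 (9.07) lay far above the other 3, and Wfdc12 (11.13) stood apart from them too. The differences between transgene and control in stratum 2 exceeded those in stratum 1 by 1.17 for Prb1, 1.19 for Prpmp5, 1.14 for Chia, 0.86 for Dmbt1 and 1.96 for Bpifa2, while for Klk1 the value was -1.25. These came from a limma term for the difference itself, and stratum 1 holds 1 library of each group.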

How the results depend on the processing

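Without stratum terms, 1690 genes were called higher and 1847 lower, with 2 members and 6 other gland products among them. Without a level minimum, 37 genes were called higher and 0 other products; without the variance trend, 2 other products were. With stratum 1 left out (added after seeing the data), 888 genes were called higher and 952 lower, with 4 other products. Leaving out each library gave 0 to 889 higher and 0 to 952 lower calls, 0 members and 0 to 4 other products. The calls went to 0 or 1 higher or lower without transgene 2, control 2 or control 3, to 0 higher and 9 lower without control 4 or control 5, and to 9 higher and 22 lower without transgene 3; the highest counts were without transgene 1 or control 1. The median difference of the members was -0.75 in stratum 1 alone, 0.06 in stratum 2 alone and 0.06 with stratum 1 left out, and -0.24 to 0.06 without single libraries. For the other products it was -0.12, 0.05 and 0.05, and -0.05 to 0.05. The median r of member pairs was 0.28 to 0.65 without single libraries. The cause was not tested for any of these, beyond the fewer libraries.

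Without stratum 1, or without either of its libraries, the difference turned to 0.05 for Prb1, 0.05 for Prpmp5, 0.06 for Chia, 0.12 for Dmbt1, -0.04 for Klk1, 0.01 for Sdc1, 0.14 for Bpifa2 and 0.03 for Trpm5. Over single libraries left out, the ranges were -0.42 to 0.05, -0.43 to 0.05, -0.41 to 0.06, -0.24 to 0.12, -0.04 to 0.46, -0.17 to 0.01, -0.65 to 0.14 and -0.09 to 0.03. In stratum 1 alone it turned to -0.27 for Aqp5, -0.16 for Krt19, -0.25 for Myh11, -0.18 for Mylk, -0.12 for Prdm1 and -0.08 for Plcb2. Muc5b and Tff2 kept a positive difference in each setting. No paired analysis was possible because replicate numbers follow accession order and pair no libraries. Depth is unknown, so no interval for low genes was given.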
